A study of Mus musculus with 2 samples.

Results

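The miR-99/100 and miR-125 genes that lie beside let-7 in the mouse genome were Mir99a, Mir99b, Mir100, Mir125a, Mir125b-1 and Mir125b-2. These 6 genes were chosen by name, as the members of both families that accompany let-7 in its 3 mixed clusters, out of 2202 annotated microRNA genes. They were measured in heart tissue of female B6CASTF1/J mice, an F1 hybrid strain, at an age of 14 days by the age field and the source name. A free-text description of the same samples writes the age in months, a conflict that the labels do not settle. The small RNA libraries, made from total RNA with a size range under 30 in the labels, formed 1 group of 2 biological replicates, so no treatment, genotype or age was compared. The labels mention 3 females for replicate 1 and 1 female for replicate 2, without saying if animals were pooled. Both replicates carry the same donor identifier, and SDs measure only the spread between these samples.

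The seed of a microRNA, its bases 2 to 8, pairs with messenger RNAs and largely sets which of them are repressed. Clusters holding a miR-100, a let-7 and a miR-125 gene occur across bilaterian animals, and the miR-125 relative of Caenorhabditis elegans, lin-4, was found with let-7 as a timer of development. In mammals, miR-99/100 is known to repress the growth kinase Mtor, and miR-125 to repress Lin28, whose protein blocks let-7 maturation. All 3 families are usually associated with differentiated rather than early embryonic cells.

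The mature 5′ arm sequences, from RefSeq on GRCm38.p6, show which genes share a seed and which can be told apart by reads; capitals mark the seed.
miR-99a-5p: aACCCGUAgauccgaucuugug
miR-100-5p: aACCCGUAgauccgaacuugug
miR-99b-5p: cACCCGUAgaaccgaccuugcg
miR-125a-5p: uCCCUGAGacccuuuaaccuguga
miR-125b-5p: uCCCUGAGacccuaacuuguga
miR-351-5p: uCCCUGAGgagcccuuugagccug
let-7c-5p: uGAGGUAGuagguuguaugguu
let-7a-5p: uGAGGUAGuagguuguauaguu
let-7e-5p: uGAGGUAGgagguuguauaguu

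The 3 miR-99/100 genes share the seed ACCCGUA, which no other gene of the RefSeq table carries. Counted from the 5′ end, miR-99a-5p and miR-100-5p differ by the single substitution U16A, whereas miR-99b-5p differs from miR-99a-5p by A1C, U11A, U16C and U21C. The miR-125 genes share the seed CCCUGAG, and miR-125a-5p and miR-125b-5p are equal over their first 13 bases. Mir351, an X-linked gene outside the clusters, has the same seed and is shown for that reason. Mir6367 and Mir6394 also carry it in RefSeq and had 0 reads in both libraries, where a count of 0 leaves room for a level of 0.573 CPM (replicate 1) or 0.991 CPM (replicate 2).

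Mir125b-1 and Mir125b-2 give the same 22-base miR-125b-5p, and their hairpins share a stretch of 24 bases. No other member shares 20 bases with any of the 2202 hairpins compared, the longest such stretch being the 16 bases common to Mir99a and Mir100. Reads that mapped to several places made up 41.1% of replicate 1 and 39.9% of replicate 2, stand in a summary line and were assigned to no gene. The levels of the miR-125b genes are therefore those of uniquely mapped reads alone and can be too low by an unknown amount. The 3′ arms, which do differ between these genes, are shown because a read of one of them fits a single hairpin of the annotation.
miR-125b-1-3p: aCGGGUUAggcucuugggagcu
miR-125b-2-3p: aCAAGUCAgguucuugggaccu

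The tables count reads per gene and do not separate the arms, so which arm gave the counted miR-125b reads was not tested. Of 1018 annotated genes with a mature sequence in RefSeq, 114 (11.2%) hold one that is found in more than 1 hairpin. The let-7 genes beside the members are touched unevenly by this. The let-7c-5p sequence lies in Mirlet7c-1 and Mirlet7c-2 and that of let-7a-5p in Mirlet7a-1 and Mirlet7a-2, while let-7e-5p lies in Mirlet7e alone.

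Each cluster lies on the plus strand within a longer host transcript (GENCODE M21, mm10). Mir99a (chr16:77598936-77599000), Mirlet7c-1 (chr16:77599657-77599750) and Mir125b-2 (chr16:77646273-77646343) lie in introns of the long non-coding RNA Mir99ahg. Mir125b-2 also overlaps an exon of C130023A14Rik. Mir100 (chr9:41531425-41531504), Mirlet7a-2 (chr9:41536716-41536811) and Mir125b-1 (chr9:41581926-41582002) lie in introns of 3110039I08Rik, a long non-coding RNA that RefSeq lists as Mir100hg. Mir125b-1 also overlaps an exon of the sense-intronic Gm28119, and Mir100 one of Gm48742 on the opposite strand. Mir99b (chr17:17830188-17830257), Mirlet7e (chr17:17830352-17830444) and Mir125a (chr17:17830812-17830879) lie in the protein-coding gene Spaca6, where Mir99b and Mirlet7e are intronic and Mir125a overlaps an annotated exon. The chromosome 17 cluster spans 692 bases, against 47.4 kb on chromosome 16 and 50.6 kb on chromosome 9.

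Replicate 1 held 12701590 reads and replicate 2 held 7126319, and 5237062 (41.2%) and 3026501 (42.5%) of them were assigned to microRNA genes in sense orientation. Levels are these counts scaled to 1000000 counted reads (CPM). Intervals are exact 95% Clopper-Pearson intervals, and they and the limits of a count of 0 cover counting error only. The cardiomyocyte microRNAs Mir208a, Mir208b and Mir499, checked as markers of the labelled heart tissue, had 3 of 3 genes detected and together took 0.517% of counted reads in replicate 1 and 0.341% in replicate 2. Markers of other cells were present as well. Endothelial Mir126a took 4.29% and 6.40%, the smooth muscle genes Mir143 and Mir145a 3.03% and 3.39%, 4 of 4 leukocyte genes 0.249% and 0.314%, and 3 of 3 erythroid genes 0.0995% and 0.738%. Of 5 epithelial genes 4 were detected (0.0549% and 0.0337%), as were 2 of 3 neuronal genes (0.0305% and 0.0170%), Mir122 of liver and Mir206 of skeletal muscle, and no marker was at 0.

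All 6 members were detected, defined as at least 10 reads in both libraries, against a background of 15.2% of annotated genes. The 3 miR-99/100 genes together took 3.88% (interval 3.86 to 3.89) of counted reads in replicate 1 and 4.83% (4.81 to 4.86) in replicate 2, a mean of 4.35% ± 0.674 (SD, n = 2). The 3 miR-125 genes took 0.855% (0.847 to 0.863) and 0.353% (0.347 to 0.360), a mean of 0.604% ± 0.355. The ranges of these sums did not overlap, with miR-99/100 higher in each library. Because miR-125b-5p reads fit more than 1 gene, this order holds for uniquely mapped reads only.

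Mir99a, the miR-99 gene of the chromosome 16 cluster, was the highest member. It had 144205 reads (27535 CPM) in replicate 1 and 80272 reads (26523 CPM) in replicate 2, a mean of 27029 ± 716 CPM, and ranked 11th and 10th of all genes. The libraries lay close together, and each was above every library of the other members. Its share of the miR-99/100 reads was 71.0% in replicate 1 and 54.9% in replicate 2.

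Mir100, whose mature 5′ arm differs from that of Mir99a by U16A alone, had 26704 reads (5099 CPM) and 14709 reads (4860 CPM), a mean of 4980 ± 169 CPM. Its libraries also lay close together. Mir99a exceeded it by 5.40-fold in replicate 1 and 5.46-fold in replicate 2, a mean log2 ratio of 2.44 ± 0.011. This ratio between paralogs on different chromosomes varied less between the libraries than any ratio within the 3 clusters. How many of all gene pairs have so steady a ratio was not computed. The SDs of the ratios within the clusters ran from 0.22 to 1.98 on the log2 scale. Other family pairs on different chromosomes were less steady, with an SD of 0.29 for Mir125b-1 over Mir125b-2 and 1.07 for Mir99a over Mir99b.

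Mir99b, the miR-99 gene of the chromosome 17 cluster, did not share this steadiness. It had 32185 reads (6146 CPM, interval 6079 to 6213) in replicate 1 and 51249 reads (16933 CPM, 16788 to 17079) in replicate 2, a mean of 11540 ± 7628 CPM. Replicate 1 was the low library although it held more reads in all. Its share of the miR-99/100 reads was 15.8% in replicate 1 and 35.0% in replicate 2.

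Mir125a, which closes the same cluster, was higher in the other library. It had 42002 reads (8020 CPM, interval 7944 to 8097) in replicate 1 and 9597 reads (3171 CPM, 3108 to 3235) in replicate 2, a mean of 5596 ± 3429 CPM. It ranked 18th and 37th of all genes and made up 93.8% and 89.7% of the counted miR-125 reads. Those shares also rest on uniquely mapped reads and do not show that miR-125a exceeded miR-125b in the heart.

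Mir125b-1 had 1648 reads (315 CPM) in replicate 1 and 729 reads (241 CPM) in replicate 2, a mean of 278 ± 52.2 CPM. Mir125b-2 had 1116 reads (213 CPM) and 371 reads (123 CPM), a mean of 168 ± 64.0 CPM. In uniquely mapped reads Mir125b-1 was the higher copy in each library, by 1.48-fold in replicate 1 and 1.96-fold in replicate 2, and the ranges did not overlap. Reads of their common miR-125b-5p fit both genes, so this order does not show which copy gave more miR-125b.

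In order of mean level the members ran from Mir99a through Mir99b, Mir125a, Mir100 and Mir125b-1 to Mir125b-2. Only parts of this order held in each library. Mir99a lay above Mir99b, by 4.48-fold in replicate 1 and 1.57-fold in replicate 2. Mir99b (6146 and 16933 CPM) also lay above Mir100 (5099 and 4860 CPM) in each library, without overlap. Mir125a could not be ordered against either, since its range overlapped both: it was the highest of these 3 genes in replicate 1 and the lowest in replicate 2. Mir100 exceeded Mir125b-1 by 16.2-fold and 20.2-fold, and the places of both miR-125b genes hold for uniquely mapped reads only. An exact two-sided sign test over 2 libraries cannot give a p under 0.5, so the order is a description.

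**Figure D1:**
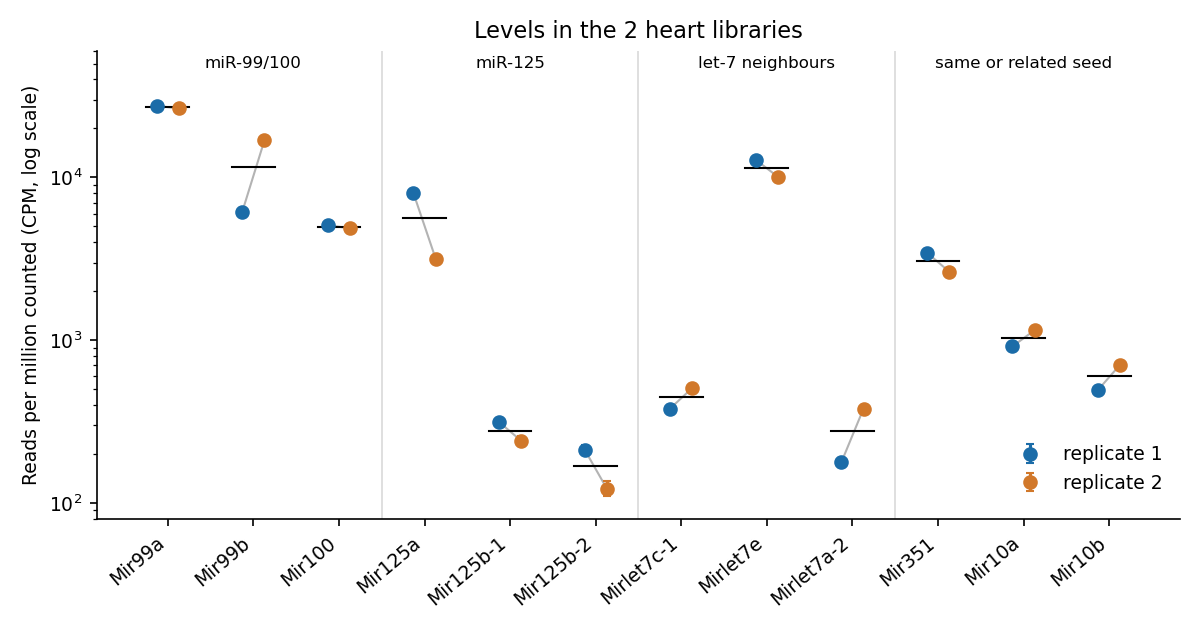
Levels in CPM (log axis) of the 6 members, the 3 let-7 genes of the same clusters, and Mir351, Mir10a and Mir10b, in replicate 1 (blue) and replicate 2 (orange); bars are exact 95% Clopper-Pearson intervals, mostly smaller than the points, and black lines are means. Mir99a (27535 and 26523 CPM) and Mir100 (5099 and 4860 CPM) had nearly equal libraries, while Mir99b and Mir125a lay far apart in opposite directions.

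Mir351, the gene outside the clusters with the miR-125 seed, stood at 3457 CPM in replicate 1 and 2638 CPM in replicate 2 (mean 3048 ± 579 CPM). With it, genes of that seed took 1.20% of counted reads in replicate 1 and 0.617% in replicate 2. Mir125a exceeded Mir351 by 2.32-fold in replicate 1 and 1.20-fold in replicate 2, but their ranges over the libraries overlapped.

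Along the chromosome 16 cluster, Mir99a stood far above its neighbours. It exceeded Mirlet7c-1 (380 and 510 CPM) by 72.4-fold in replicate 1 and 52.0-fold in replicate 2, and Mir125b-2 by 129-fold and 216-fold. On chromosome 9, Mir100 exceeded Mirlet7a-2 (177 and 380 CPM) by 28.7-fold and 12.8-fold, and Mir125b-1 by 16.2-fold and 20.2-fold. In both clusters the miR-99/100 gene has a mature sequence of its own, and the let-7 and the miR-125 gene have one shared with a copy elsewhere. How much of these ratios comes from that was not tested.

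Along the chromosome 17 cluster, each 5′ mature sequence is found in a single hairpin, and the levels ran from 3171 to 16933 CPM. Mirlet7e stood at 12836 CPM in replicate 1 and 10082 CPM in replicate 2 (mean 11459 ± 1948 CPM). Mir99b was 2.09-fold below Mirlet7e in replicate 1 and 1.68-fold above it in replicate 2. Mir125a was below Mirlet7e in each, by 1.60-fold and 3.18-fold. Mir125a was 1.31-fold above Mir99b in replicate 1 and 5.34-fold below it in replicate 2, so that the order of these close neighbours turned round between the libraries.

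As a fold between the libraries in CPM, which scales to total counts, the sum over each cluster varied less than its members. On chromosome 16 it varied hardly less than Mir99a. By SD this did not hold for every member. Nor does it hold by fold with the TMM scaling used below. Its shift of -0.13 puts the sums farther apart than Mirlet7e on chromosome 17, Mir99a on chromosome 16 and Mir100 on chromosome 9. The chromosome 17 cluster took 2.70% of counted reads in replicate 1 and 3.02% in replicate 2, that of chromosome 16 took 2.81% and 2.72%, and that of chromosome 9 took 0.559% and 0.548%. In the chromosome 16 and 9 clusters these sums are mostly Mir99a and Mir100.

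**Figure D2:**
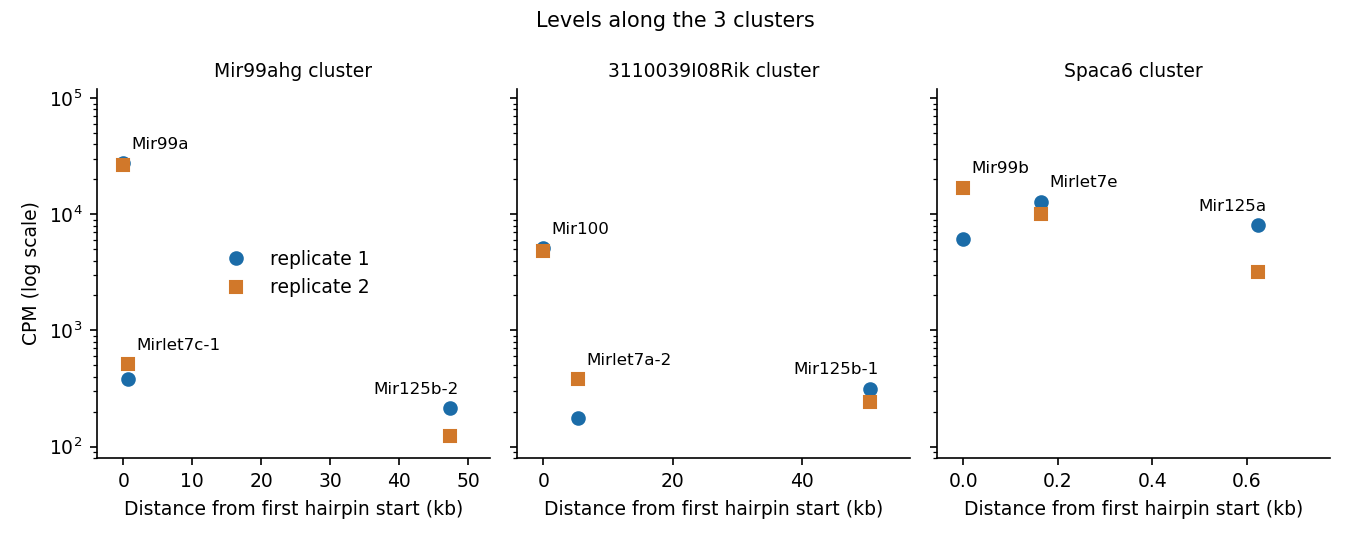
Levels in CPM (log axis) along the 3 clusters against the distance of each hairpin's start from that of the first hairpin in kb, for replicate 1 (blue circles) and replicate 2 (orange squares); the distance axes differ between panels. In the compact Spaca6 cluster Mir99b was lower and Mir125a higher in replicate 1. In the other clusters the miR-99/100 gene stood 12.8-fold to 216-fold above the other genes. Those other genes share their 5′ mature sequence with a copy elsewhere, so these folds hold for uniquely mapped reads only.

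The difference between the libraries was then set beside that of all genes. Differences are log2 values of replicate 1 minus replicate 2 after TMM scaling, which shifted them by -0.13 relative to total counts. With 1 library on each side no test over replicates exists, so a gene was counted as different when it was at least 2-fold apart, and intervals are for counting error. Of 226 genes that averaged 100 reads or more, 41 (18.1%) were at least 2-fold apart, and the median difference was 1.32-fold. Of the 6 members, 2 were at least 2-fold apart and the median was 1.37-fold.

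Mir99b was lower in replicate 1 by 3.02-fold (log2 -1.60, interval -1.62 to -1.58), and 18 of the 226 genes were farther apart; 5.75% of genes were at least 2-fold lower. Mir125a was higher in replicate 1 by 2.30-fold (log2 1.20, 1.17 to 1.24), with 32 genes farther apart and 12.4% of genes at least 2-fold higher. Both differed in opposite directions, and Mirlet7e between them differed by 1.16-fold (log2 0.21).

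Mir99a (log2 -0.08) and Mir100 (log2 -0.07) were slightly lower in replicate 1 with TMM scaling and slightly higher with total counts (0.05 and 0.07), so neither has a direction. Mir125b-1 (log2 0.25, interval 0.12 to 0.38) and Mir125b-2 (log2 0.66, 0.49 to 0.84) were higher in replicate 1 by less than 2-fold. All 3 miR-125 genes were thus on the higher side in replicate 1. Mirlet7e (log2 0.21), the let-7 gene beside Mir125a, was on the higher side too. Mirlet7c-1 (log2 -0.56) and Mirlet7a-2 (log2 -1.23), the let-7 genes beside the miR-125b copies, were on the lower side. The median log2 difference of the 226 genes was -0.05, so a place on the higher side does not set the miR-125 genes apart. The miR-125b differences rest on uniquely mapped reads only.

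Cell type markers also differed between the libraries. Of the 3 erythroid genes, Mir451a (log2 -4.91) and Mir144 (log2 -2.62) were lower in replicate 1 and Mir486 (log2 0.55) was higher. All 5 epithelial genes were on the higher side, from Mir200c (log2 0.22) to Mir200b (log2 2.88). Except for Mir200c, they had few reads in replicate 2: 5 for Mir200a, 31 for Mir200b, 42 for Mir141 and 44 for Mir429. Smooth muscle Mir145a (0.33) and neuronal Mir128-1 (1.29) were also on the higher side. Smooth muscle Mir143 (-0.31), neuronal Mir137 (-0.33), liver Mir122 (-0.47) and skeletal muscle Mir206 (-1.52) were on the lower. Neuronal Mir9-3 had 6 reads in each library. Among 4 leukocyte genes, the myeloid Mir223 (log2 1.83), Mir150 (0.60) and Mir142 (0.26) were on the higher side and Mir155 (-0.85) on the lower, as was the endothelial Mir126a (-0.71). The cardiomyocyte genes Mir208a (log2 0.95), Mir499 (0.35) and Mir208b (0.06) ranged from higher to nearly equal. The part of these cell types in the differences of Mir99b and Mir125a was not tested. In bulk tissue, fewer cells of a type and less RNA per cell cannot be told apart.

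**Figure D3:**
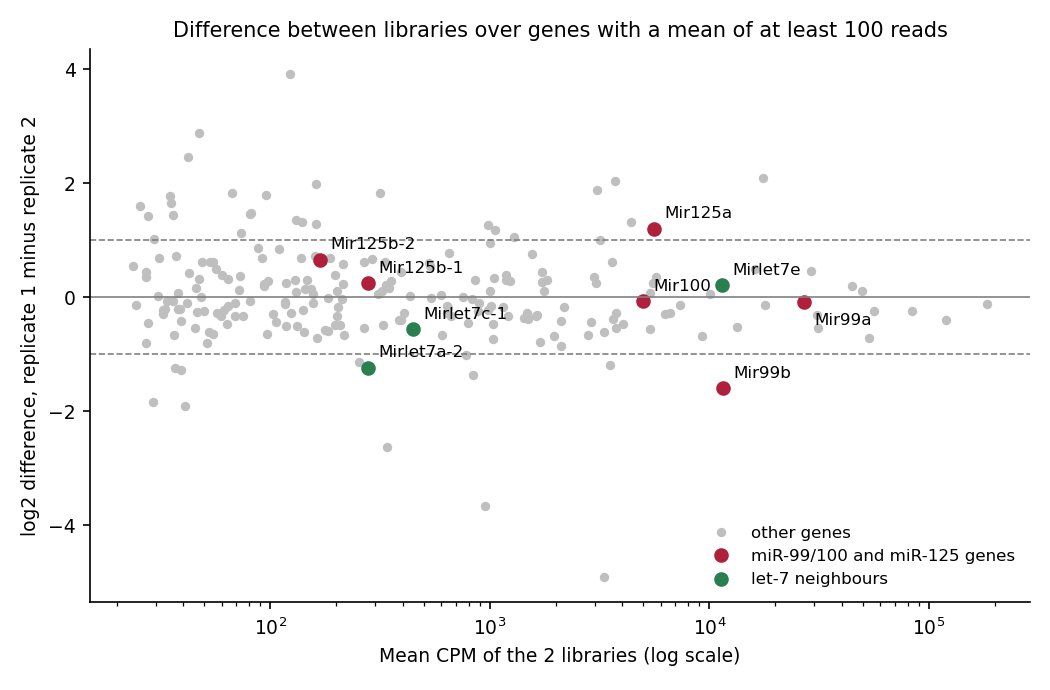
The log2 difference of replicate 1 minus replicate 2 after TMM scaling against mean CPM (log axis) for the 226 genes averaging 100 reads or more, with dashed lines at 2-fold, the 6 members in red, the let-7 neighbours in green and other genes in grey. Mir125a (1.20) lies above the upper line and Mir99b (-1.60) below the lower one, and Mir99a and Mir100 lie near 0.

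Genes of one cluster are often taken to come from a shared primary transcript, so the gap between the log2 differences of neighbours was computed for every pair of non-overlapping genes on one strand whose starts lay within 1000 bases and whose means reached 100 reads. This comparison was chosen after the values of Mir99b and Mir125a were seen. Among the 46 such pairs, Mir99b and Mir125a, 624 bases apart, had the widest gap, 2.80 on the log2 scale or 6.97-fold, against a median gap of 0.76. Mir99b and Mirlet7e, 164 bases apart, ranked 4th with 1.81. Mirlet7e with Mir125a (0.99) and Mir99a with Mirlet7c-1 (0.48) lay nearer the median. The pairs share genes and loci and are not independent. With pairs up to 10000 bases apart, Mir99b and Mir125a ranked 2nd of 142, behind Mir181a-2 and Mir181b-2.

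**Figure D4:**
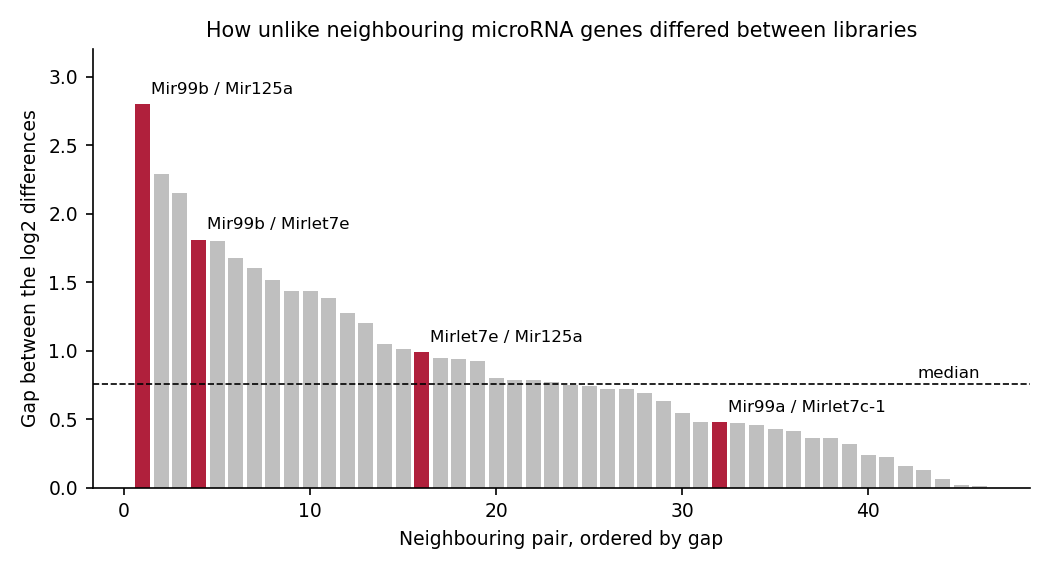
Gap between the log2 library differences of neighbouring genes for 46 pairs within 1000 bases, ordered from widest to narrowest, with pairs of the miR-99/100, let-7 and miR-125 clusters in red and the median as a dashed line. Mir99b with Mir125a is the first bar (2.80) and Mir99a with Mirlet7c-1 (0.48) lies below the median of 0.76.

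The genes outside the members with the most similar levels over the 2 libraries, by Euclidean distance in log2(CPM + 1), were named for each member. Mir99a lay nearest to the smooth muscle Mir143 (distance 0.33), Mir99b to Mir322 (0.69), Mir100 to Mir744 (0.19), Mir125a to Mir27b (0.53), Mir125b-1 to the Myh7-hosted Mir208b (0.26) and Mir125b-2 to Mir770 (0.076). Mir27b, which was chosen by these same values, stood at 6459 CPM in replicate 1 and 2363 CPM in replicate 2, the same direction as Mir125a. With 2 libraries, such likeness reflects the level and a single difference.

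No member had a read on the opposite strand, and for all 6 the unstranded and the own-strand counts were equal. Mirlet7e was the exception in its cluster. Its unstranded count was 0 in both libraries, against 67222 and 30512 own-strand reads, as it overlaps the annotated microRNA gene Gm25927 on the opposite strand.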

How the data were processed

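The authors deposited 1 table of raw read counts per library, with whole numbers for each gene, made on mm10 with GENCODE M21 per the file headers of the accompanying readme. For adapter trimming, alignment and counting, tools are not given in the sources used. The 4 summary lines stayed out of all totals. Of the reads, 13.4% of replicate 1 and 13.3% of replicate 2 were unmapped and 4.33% and 4.30% lay outside microRNA genes. The third column, which holds reads on the gene's own strand, was used. All 2202 gene IDs matched the annotation.

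CPM, SDs, intervals and ratios (0.5 reads added to each count) were computed in Python 3.11.15 with pandas 2.3.3, numpy 2.4.6 and scipy 1.17.1, and plots in matplotlib 3.10.9. TMM scaling used edgeR 4.0.16 in R 4.3.3 over genes whose reads summed to 10 or more, and DESeq2 1.42.0 size factors were an alternative. The library difference and its interval were tried on simulated counts that held counting error only, so spread beyond counting was not tested. Hairpins came from GENCODE M21 transcripts, and copies outside annotated hairpins were not looked for. Mature sequences came from RefSeq.

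Named were the 6 members, the let-7 genes of their clusters, Mir10a and Mir10b, genes with a member's seed, the nearest gene of each member and the cell type markers. Genes of neighbouring pairs and Gm25927 were added after their values were seen. The members and lists were chosen with earlier results of these data known.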

Additional observations from a re-analysis of the deposited data

How the results depend on the processing

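Of 8 results that moved or reversed among those answering a comparison, 3 concern the summed share of the miR-99/100 genes, which was 5.97% with unstranded counts, 5.34% without Mir378a in the total and 1.83% of all reads of the library, against 4.35%. The share of the miR-125 genes was 0.822%, 0.741% and 0.251% under these settings, against 0.604%, and so moved in the same directions. Each move was less than its SD of 0.355, which is wide beside its mean, so the share is not shown to be steadier. With unstranded counts, in which Mirlet7e has 0 reads, the log2 ratio of Mir99b over Mirlet7e was 16.31 and that of Mir125a over Mirlet7e was 15.29, the reverse of -1.17, since reads in its overlap with Gm25927 are ambiguous without strand. The share of all genes at least 2-fold apart was 28.6% among genes with at least 10 reads in sum and 40.4% among all genes with a read, and 36.3% of genes averaging 100 reads or more were at least 1.5-fold apart. The count of members at least 2-fold apart was 2 also with DESeq2 size factors, total counts, 10 reads added, unstranded counts and TMM over all genes (added after seeing the data), and was 3 at 1.5-fold. All 6 members were detected with a minimum of 1 or 100 reads and in either library alone. The share of all genes was computed only for at least 10 reads in both libraries (15.2%). Leaving out a library leaves no difference between libraries, so that result has no such value. No paired analysis was possible because there is 1 group.

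The lowest count of a member was 371 reads. Reads mapping to several places were not assigned to genes, and how many of them belong to the members was not measured.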

Other observations

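The Hox-cluster genes Mir10a and Mir10b, whose seed ACCCUGU resembles that of miR-99/100 without being equal to it, were far below Mir99a. Mir10a stood at 916 CPM in replicate 1 and 1153 CPM in replicate 2 (mean 1035 ± 167 CPM), and Mir10b at 495 and 709 CPM (mean 602 ± 151 CPM). Both were lower in replicate 1 after TMM scaling, by 1.38-fold and 1.57-fold. Their mature 5′ arms, which each lie in a single annotated hairpin, read as follows with the seed in capitals.
miR-10a-5p: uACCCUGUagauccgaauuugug
miR-10b-5p: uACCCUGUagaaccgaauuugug

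The 3′ arms of Mir99a and Mir99b also share a seed, AAGCUCG, which no other gene in the RefSeq table has, and that of Mir100 has another, CAAGCUU. Whether these arms were present cannot be read from counts per gene.
miR-99a-3p: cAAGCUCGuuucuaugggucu
miR-99b-3p: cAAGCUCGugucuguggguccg
miR-100-3p: aCAAGCUUgugucuauagguau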
